A study of Homo sapiens with 8 samples.

Results

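The microtubule-affinity regulating kinases MARK1, MARK2, MARK3 and MARK4 were examined together with the LKB1 complex that switches them on (STK11, STRADA and CAB39) and their substrate tau (MAPT). These 8 genes were found by symbol among the 60651 genes of the table, and all 8 passed the filter on low values. The measurement was ribosome profiling, which sequences the pieces of mRNA left under ribosomes after nuclease digestion. It was made in IMR32, an established human neuroblastoma cell line with amplified MYCN, labelled as wild type and as neuroblasts. A set of 4 libraries came from cells treated with CR31B, a silvestrol analogue (rocaglate) that targets the RNA helicase eIF4A, and another 4 from cells given the solvent DMSO at 0.1%. Treatment lasted 6 h, and cells of both groups received cycloheximide before harvest. The labels call the libraries biological replicates and give no dose of CR31B, and all of them come from 1 cell line.

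MARK kinases phosphorylate microtubule-associated proteins, which loosens those proteins from microtubules and makes the microtubules more dynamic. They also act in cell polarity and in the shaping of neurites. Each MARK is itself activated when LKB1, the product of STK11, phosphorylates a threonine in its activation loop. LKB1 is active only when bound to the pseudokinase STRAD and the scaffold protein MO25, the products of STRADA and CAB39. In tau, MARKs phosphorylate serines in the KXGS motifs of the microtubule-binding repeats.

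The set was chosen by the measured TPM of MARK1 in these same libraries, 4 with CR31B against 4 with DMSO, where its rise was already known. MARK1 is therefore described below without a test. The other 7 genes entered by family or pathway, with results of these data already known, so their tests describe single genes and say nothing about the set as a whole.

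The coding sequence around the codon of the phosphorylated threonine is shown because LKB1 acts on that threonine in all 4 kinases. The segment runs from the metal-binding loop to the end of the activation loop, read 5′ to 3′ on the coding strand from GENCODE release 29 transcripts. Capitals mark the codon of the threonine that LKB1 phosphorylates, at residue 215 of MARK1, 208 of MARK2, 211 of MARK3 and 214 of MARK4.
MARK1: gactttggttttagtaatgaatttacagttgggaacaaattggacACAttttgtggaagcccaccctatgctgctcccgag
MARK2: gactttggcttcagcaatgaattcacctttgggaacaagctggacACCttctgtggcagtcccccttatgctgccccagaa
MARK3: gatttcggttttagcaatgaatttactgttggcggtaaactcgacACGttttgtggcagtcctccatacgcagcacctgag
MARK4: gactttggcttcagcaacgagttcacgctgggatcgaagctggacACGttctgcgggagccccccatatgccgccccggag

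Between pairs of MARK genes, 17 to 25 of these 81 bases differed. Over the whole coding sequences, the longest identical stretch was 23 nt, shared by MARK1 with MARK2 and by MARK1 with MARK3. Fragments of 28 to 30 nt were selected for these libraries, per the labels' protocols. No window of 28 nt in the chosen MARK1, MARK3 or MARK4 transcript occurred in an annotated transcript of another gene, on either strand. In MARK2, 0.380% of windows did, all shared with a pair of pseudogenes and LINC00865, which were listed at 0.01 TPM or less in every library. In the reference transcripts, reads of this length thus separate the 4 kinases.

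A pair of MARK target sites in tau is shown because they encode serines that the kinase phosphorylates in this substrate. They were read from a GENCODE release 29 transcript. Capitals mark the serine codon of the KXGS motif, at residues 262 and 324 of tau in the usual numbering, that of the longest isoform of the central nervous system.
MAPT site at residue 262: gtcaagtccaagatcggcTCCactgagaac
MAPT site at residue 324: gtgacctccaagtgtggcTCAttaggcaac

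Values are TPM, a level per unit of transcript length with a fixed sum per library. The coding part of that length differs between genes. It is 2385 of 2946 nt in the chosen MARK1 transcript, 1023 of 3826 nt for CAB39 and 2274 of 6762 nt for MAPT. An order, sum or ratio of TPM between genes is therefore a description of TPM, not of ribosomes per coding length. With the sum fixed, a rise or fall between treatments is relative to the other genes of a library. No absolute scale was used, so a change in total translation would not show. From 17857 to 22270 genes were above 0 in a library. Protein-coding genes took 61.3% of TPM in CR31B replicate 1 and 51.8% to 52.3% in the other CR31B libraries. Over both groups the share ran from 51.8% to 61.3%, so the DMSO libraries lay within that range. Of 12 adrenergic neuroblast markers, 11 had a mean of at least 1 TPM; TH, the exception, was at 0.35 to 1.19 TPM. Among mesenchymal markers PRRX1 was at 0 throughout, but TWIST1 was at 26.2 to 40.8 TPM. The summed glial markers reached at most 0.8 TPM and the leukocyte markers at most 0.24 TPM. Of the tested adrenergic markers, 1 of 11 passed the test between treatments, against 7.46% of all genes tested. It was HAND2, which rose by 0.58 on the log2 scale (limma adjusted p of 0.0188).

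The question was how footprints of these genes differed after CR31B. In relative terms (TPM), MARK1 footprints stood 4.27-fold higher in CR31B cells, whereas MARK2 fell to 0.569 and CAB39 to 0.485 of their DMSO levels. MARK3, MARK4, STK11, STRADA and MAPT did not pass the test. Of the 7 genes other than MARK1, 2 were lower at a limma adjusted p under 0.05, none was higher and 5 did not pass. Over all 11778 genes tested in the same fit, 7.46% were called, 3.45% higher and 4.02% lower. For 3 of the 8, CR31B and DMSO libraries did not overlap, with MARK1 higher and MARK2 and CAB39 lower. Among all genes tested 16.2% were free of overlap, 8.07% higher and 8.14% lower. With 8 genes chosen in knowledge of the data, nothing is read from these counts.

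**Figure D1:**
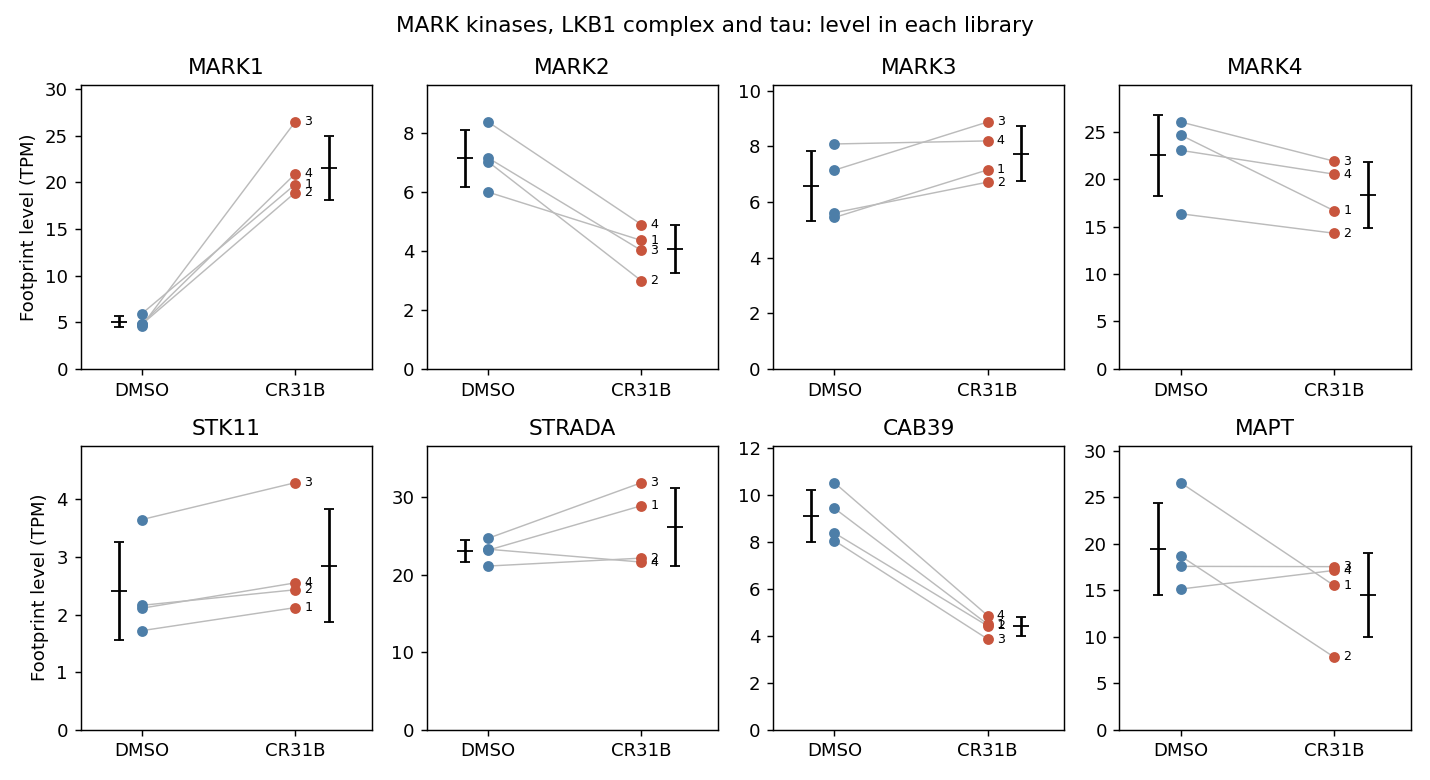
Footprint level in TPM of each of the 8 genes in the 4 DMSO and 4 CR31B libraries; points are libraries, grey lines join libraries with the same replicate number (printed beside the CR31B points), and black bars show the mean and SD. The groups do not overlap for MARK1, MARK2 and CAB39, and overlap for the other 5 genes.

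MARK1 (ENSG00000116141.17) lies at chr1:220528183-220664461 on the plus strand of GRCh38, and its chosen transcript has 18 exons and a coding sequence of 2385 nt. Its level was 19.76, 18.89, 26.46 and 20.89 TPM in CR31B replicates 1 to 4, and 5.92, 4.78, 4.62 and 4.84 TPM in DMSO replicates 1 to 4. The lowest CR31B library was thus far above the highest DMSO library, and CR31B exceeded DMSO in 4 of 4 replicate pairs. Means were 21.5 ± 3.41 TPM and 5.04 ± 0.594 TPM (SD, n = 4 each), a difference of 1.89 on the log2(TPM + 1) scale. Counted from the largest rise downward, it ranked 13 among all 11778 genes. This rank uses the same values by which MARK1 was chosen. Leaving out 1 library at a time gave differences from 1.79 to 1.96.

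In DMSO the levels ran, from highest to lowest mean, STRADA, MARK4, MAPT, CAB39, MARK2, MARK3, MARK1 and STK11. Neighbours in that order overlapped in range except MAPT with CAB39 and MARK1 with STK11. In CR31B the order was STRADA, MARK1, MARK4, MAPT, MARK3, CAB39, MARK2 and STK11, and of the neighbours MARK3 and CAB39 alone did not overlap. MARK1 thus stood next to last in DMSO and next to first in CR31B. In DMSO its range overlapped that of MARK3, the next gene above. In CR31B it overlapped both STRADA and MARK4, the genes next to it in the order. Of 5612 other genes averaging 10 TPM or more, those whose levels followed MARK1 most closely over the 8 libraries were GPRASP2 (Pearson r of 0.990), CCDC59 (0.989) and WDR36 (0.987). All 3 correlations are descriptions over libraries that share the same split into CR31B and DMSO. CCDC59 went from 36.3 ± 1.25 to 55.2 ± 1.53 TPM and WDR36 from 20.9 ± 1.08 to 36.2 ± 1.40 TPM (SD, n = 4 each). GPRASP2 went from 3.91 ± 0.324 to 17.03 ± 2.51 TPM (SD, n = 4 each), a log2 difference of 1.87 beside 1.89 for MARK1. GENCODE release 29 also annotates the gene ARMCX5-GPRASP2 over part of GPRASP2 on the same strand, so the level of GPRASP2 is uncertain.

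MARK2 (ENSG00000072518.22), which like MARK1 acts in polarity and on microtubules, lies at chr11:63838928-63911019 on the plus strand. It was at 4.36, 2.99, 4.02 and 4.90 TPM in the CR31B libraries, replicates 1 to 4 in order, and at 6.00, 7.03, 7.16 and 8.38 TPM in DMSO. Every CR31B library lay below every DMSO library, although the gap between the groups was narrow. Means were 4.07 ± 0.805 and 7.14 ± 0.975 TPM (SD, n = 4 each), which gives a log2 fold change of -0.69 (SE 0.16; interval at 95% confidence from -1.04 to -0.35), with a limma adjusted p of 0.0253. The exact permutation p was 0.0286, the smallest that 4 against 4 libraries allow. The call was lost without DMSO replicate 4 (limma adjusted p of 0.0866), without DMSO replicate 2 (0.0640) and with no filter on low values (0.0769).

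MARK3 (ENSG00000075413.19), at chr14:103385392-103503831 on the plus strand, was at 7.15, 6.71, 8.87 and 8.19 TPM in CR31B and at 5.44, 5.61, 7.14 and 8.08 TPM in DMSO. CR31B was higher in 4 of 4 replicate pairs, but the groups overlapped, with DMSO replicates 3 and 4 inside the CR31B range. The log2 fold change was 0.21 (SE 0.15; interval at 95% confidence from -0.12 to 0.55), with a limma adjusted p of 0.433 and an exact permutation p of 0.171. It was 0.14 without DMSO replicate 1.

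MARK4 (ENSG00000007047.15), at chr19:45079288-45305283 on the plus strand, had the highest level of the 4 kinases in DMSO. It was at 16.69, 14.31, 21.91 and 20.54 TPM in CR31B and at 24.66, 16.36, 26.04 and 23.05 TPM in DMSO. Replicate 2 was the lowest library of both groups. CR31B was lower in 4 of 4 pairs while the groups overlapped. The log2 fold change was -0.28 (SE 0.18; interval at 95% confidence from -0.67 to 0.11), with a limma adjusted p of 0.377 and an exact permutation p of 0.200. It was -0.17 without CR31B replicate 2 and -0.42 without DMSO replicate 2.

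The make-up of the MARK family followed from these values. Summed over the 4 genes, the level was 42.9 to 61.3 TPM in CR31B libraries and 33.8 to 45.0 TPM in DMSO libraries, so the sums overlapped. MARK1 held 38.3% to 44.0% of the sum in CR31B and 10.3% to 14.2% in DMSO. MARK4 held 33.4% to 37.7% in CR31B and 48.4% to 58.7% in DMSO, where it was the largest of the 4 in every library. MARK2 held 6.56% to 9.09% and 14.3% to 20.8%, respectively. The share of MARK3, at 14.5% to 15.6% in CR31B and 12.9% to 18.2% in DMSO, overlapped between groups. Since the shares add up to a whole, a larger share of MARK1 lowers the others. MARK2 per MARK3, the only ratio of MARK genes without MARK1 taken here, was 0.446 to 0.610 in CR31B and 1.003 to 1.25 in DMSO. It says nothing of MARK4. The shares and this ratio are given without a test.

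**Figure D2:**
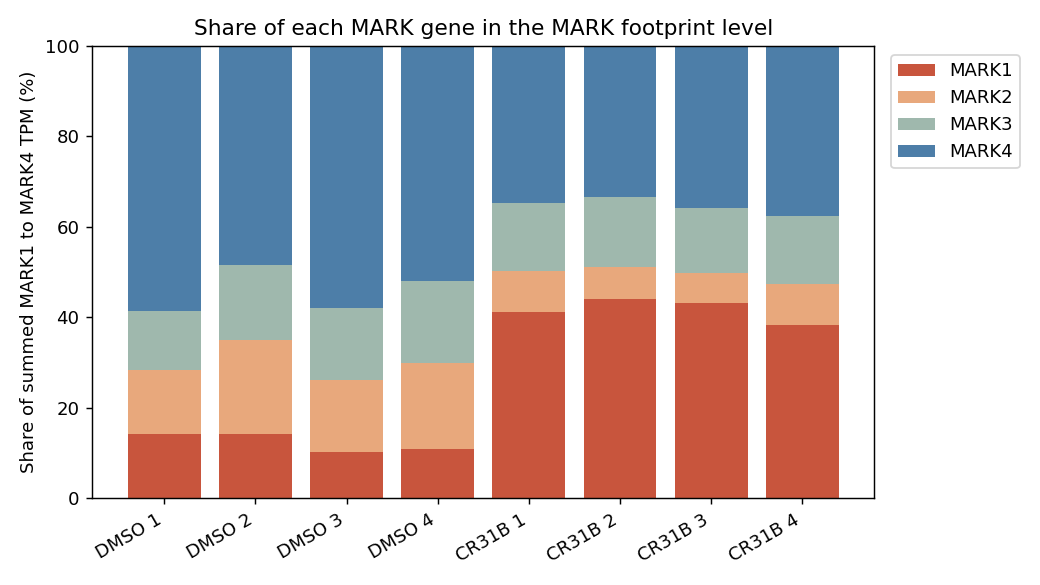
Share of MARK1, MARK2, MARK3 and MARK4 in their summed TPM, in percent, for each of the 4 DMSO and 4 CR31B libraries. MARK1 holds 38.3% to 44.0% in CR31B libraries and 10.3% to 14.2% in DMSO libraries, and MARK3 holds similar shares in both.

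Of the upstream complex, CAB39 was the gene that fell. CAB39 (ENSG00000135932.11), which encodes the scaffold MO25, lies at chr2:230712845-230821075 on the plus strand. It was at 4.49, 4.42, 3.86 and 4.86 TPM in the CR31B libraries, replicates 1 to 4 in order, and at 9.43, 8.38, 8.05 and 10.52 TPM in DMSO. All CR31B libraries were well below all DMSO libraries, and the CR31B values were close together. Means were 4.41 ± 0.413 and 9.10 ± 1.12 TPM (SD, n = 4 each). The log2 fold change was -0.90 (SE 0.13; interval at 95% confidence from -1.18 to -0.61), with a limma adjusted p of 0.00366 and an exact permutation p of 0.0286. CAB39 was tested under 16 of the 17 alternatives and passed in each, with limma adjusted p from 0.00193 to 0.0177.

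STK11 (ENSG00000118046.16), the LKB1 kinase gene at chr19:1177558-1228435 on the plus strand, had the lowest level of the 8 genes in both groups. It was at 2.12, 2.43, 4.29 and 2.55 TPM in CR31B and at 1.72, 2.16, 3.65 and 2.11 TPM in DMSO. Replicate 3 was the highest library of each group, and CR31B was higher in 4 of 4 pairs. The groups overlapped, and the log2 fold change of 0.17 did not pass (SE 0.22; interval at 95% confidence from -0.30 to 0.65), with a limma adjusted p of 0.682 and an exact permutation p of 0.486. It was 0.0098 without CR31B replicate 3, 0.075 without DMSO replicate 1, 0.26 without CR31B replicate 1 and 0.33 without DMSO replicate 3. An estimated 306 to 503 reads per library lay behind STK11, the fewest of the 8 genes. Its chosen transcript overlaps CBARP over 149 bases on the opposite strand, outside the coding sequence.

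STRADA (ENSG00000266173.7), the gene of the pseudokinase, lies at chr17:63682336-63741986 on the minus strand. It was at 28.89, 22.13, 31.86 and 21.62 TPM in CR31B and at 23.16, 21.11, 24.69 and 23.28 TPM in DMSO. CR31B replicates 1 and 3 were higher than any DMSO library and the other CR31B libraries lay within the DMSO range. The log2 fold change was 0.16 (SE 0.14; interval at 95% confidence from -0.16 to 0.47), with a limma adjusted p of 0.559 and an exact permutation p of 0.371. It was 0.058 without CR31B replicate 3, 0.10 without CR31B replicate 1 and 0.24 without CR31B replicate 4. Of the 28-nt windows in its coding sequence, 88.2% also occur in the overlapping gene AC046185.1 on the same strand. That gene was listed at 0 to 0.04 TPM. How shared reads were divided is not given in the sources used here, so the level of STRADA is uncertain.

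Ratios within the complex are given without a test. CAB39 per STRADA was 0.121 to 0.225 in CR31B libraries and 0.326 to 0.452 in DMSO libraries, with no overlap. STRADA per STK11 was 7.43 to 13.6 and 6.76 to 13.5, respectively, which overlapped almost fully. A ratio within a library does not depend on the fixed sum of TPM, though its size depends on the transcript lengths used.

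STRADB and CAB39L encode the paralogs of the pseudokinase and of the scaffold. STRADB was at 4.92, 5.40, 5.25 and 4.79 TPM in CR31B and at 3.39, 4.27, 3.66 and 2.86 TPM in DMSO. The STRADB groups did not overlap, but its log2 fold change of 0.43 did not pass (SE 0.13), with a limma adjusted p of 0.0806 and an exact permutation p of 0.0286. CAB39L was low, at 1.08 ± 0.325 TPM (SD, n = 4) with CR31B against 1.70 ± 0.456 TPM (SD, n = 4) without. Its log2 fold change was -0.37 (SE 0.18), with a limma adjusted p of 0.246, and the groups overlapped.

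MAPT (ENSG00000186868.17), the tau gene, lies at chr17:45894382-46028334 on the plus strand. It was at 15.52, 7.82, 17.54 and 17.13 TPM in CR31B and at 26.57, 18.68, 17.57 and 15.13 TPM in DMSO. CR31B replicate 2 was the lowest and DMSO replicate 1 the highest, and the remaining libraries were intermixed. The log2 fold change was -0.43 (SE 0.25; interval at 95% confidence from -0.98 to 0.12), with a limma adjusted p of 0.329 and an exact permutation p of 0.200. It was -0.18 without CR31B replicate 2 and -0.28 without DMSO replicate 1. The antisense gene MAPT-AS1 overlaps the chosen MAPT transcript over 75 bases outside the coding sequence and was at 0.06 TPM or less.

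**Figure D3:**
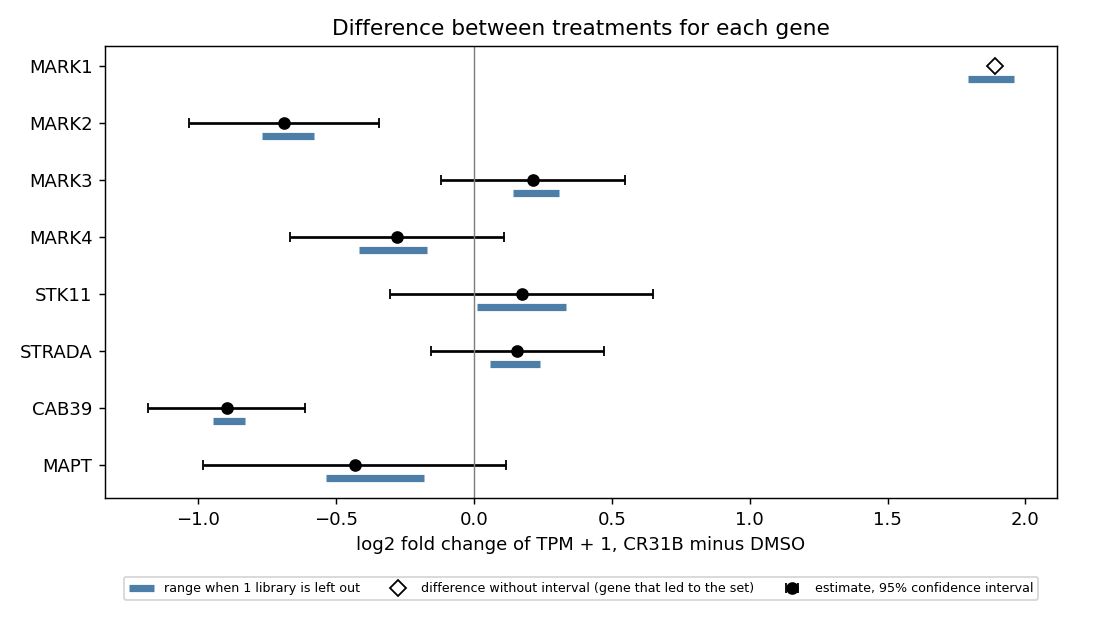
Difference between CR31B and DMSO for each gene, on the log2(TPM + 1) scale; black points and bars are the limma estimate with its 95% confidence interval (n = 4 each), and blue bars the range of estimates when 1 library is left out. MARK2 and CAB39 lie below 0 with their intervals, the intervals of MARK3, MARK4, STK11, STRADA and MAPT include 0, and MARK1 is drawn as an open diamond without an interval.

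Rocaglates are known to clamp eIF4A onto purine-rich stretches of mRNA leaders, the part before the start codon. The longest uninterrupted run of A and G in each leader is given as a description of the reference transcript, searched on the sense strand only. Which transcripts IMR32 cells use is not known from gene-level values. The runs of MARK1, of the pair that fell and of MARK4 are printed to show the extremes and the genes that moved.
MARK1 leader run: GGGAAG
MARK2 leader run: GGGAGGAGAAGG
CAB39 leader run: AGAGAAGGGAA
MARK4 leader run: GGGGGGGGAGGGGAAGAGAGGGGA

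MARK1 had the shortest run of the 8 leaders, at 6 nt in a leader of 266 nt. A run at least as long was present in 80.4% of 18175 leaders of coding genes, whose median run was 8 nt. The run was 12 nt in the MARK2 leader of 502 nt and 11 nt in the CAB39 leader of 429 nt, lengths reached by 20.7% and 27.5% of leaders. MARK4 had the longest, at 24 nt, which 1.40% of leaders reached. The runs of MARK3, STK11, MAPT and STRADA were 13, 12, 11 and 7 nt. All leaders were compared whatever their length, and longer leaders can hold longer runs; the median leader was 198 nt, shorter than those of 7 of the 8 genes. A run is not a binding site, and its part in the levels was not tested.

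Around the members, 63 other genes in 5 lists were followed, of which 53 passed the filter. In these lists 1 gene was higher and 7 were lower at a limma adjusted p under 0.05, or 15.1% against 7.46% of all genes tested. The median log2 fold change was -0.13, against 0.029 for all genes. The lists were written with results of these data known. The 8 calls became 3 without DMSO replicate 4, and 5 without CR31B replicate 2 or 4 or DMSO replicate 1 or 2. The calls over all genes moved too, from 879 to 405 without DMSO replicate 4, and with the replicate block 11 of the 53 were called against 12.3% of all genes.

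None of the 7 tested AMPK-related kinases that LKB1 also activates passed, and their median log2 fold change was 0.012, from -0.10 without DMSO replicate 2 to 0.14 without DMSO replicate 4. The count passing in this list became 1 under 4 of the 17 alternatives, though not with the same gene in each. These were a minimum mean of 10 TPM, rescaling over protein-coding genes, quantile normalization, and leaving out CR31B replicate 1. PRKAA1, a catalytic subunit of the energy sensor AMPK, had the largest value in that list. It was at 27.24, 29.63, 39.76 and 31.47 TPM in CR31B and at 21.35, 27.27, 20.18 and 20.63 TPM in DMSO. Only DMSO replicate 2 reached the lowest CR31B library, and the log2 fold change was 0.50 (SE 0.15), with a limma adjusted p of 0.0654 and an exact permutation p of 0.0571. With a minimum mean of 10 TPM the limma adjusted p of PRKAA1 was 0.0489. It was 0.0534 with rescaling over protein-coding genes, 0.0898 with quantile normalization and 0.0578 without CR31B replicate 1. The gene of this list that passed under those last settings was thus not PRKAA1. PRKAA2, the other catalytic subunit, was at 0.955 ± 0.209 and 0.895 ± 0.200 TPM (SD, n = 4 each), under the filter. The 6 tested AMPK regulatory subunits and complex paralogs, STRADB and CAB39L among them, had a median of 0.049, which was -0.025 without CR31B replicate 1, and none passed.

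Among 12 tested MARK regulators and partners 3 fell and none rose, with a median of -0.34. The share called lower over all genes tested was 4.02%. The count in this list ran from 2 to 4 when 1 library was left out. USP9X, a deubiquitinase that acts on MARK4 and on a related kinase, was at 7.79, 5.39, 6.17 and 6.12 TPM in CR31B and at 13.82, 12.40, 22.33 and 11.77 TPM in DMSO. Its groups did not overlap, and it fell by 1.09 on the log2 scale (SE 0.20), with a limma adjusted p of 0.00922. YWHAB, of the 14-3-3 proteins that bind phosphorylated targets of MARKs, fell from 151 ± 11.7 to 97.2 ± 6.41 TPM (SD, n = 4 each; log2 fold change -0.63, limma adjusted p of 0.00709). YWHAQ, named after its values were seen, fell from 635 ± 49.5 to 434 ± 28.3 TPM (log2 fold change -0.55, limma adjusted p of 0.0163). The YWHAQ call was lost without DMSO replicate 4 (limma adjusted p of 0.0532) or without CR31B replicate 4 (0.0535). Of the 6 tested YWHA genes, 2 were called lower, against 4.02% of all genes tested. For 5 of them all CR31B libraries lay below all DMSO libraries, against 8.14% of all genes tested. The YWHA genes are part of a list written with results of these data known, so nothing is read from these counts. The YWHA genes also resemble one another and have pseudogene copies, so their levels carry some uncertainty.

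Of 15 tested MARK substrates other than tau, MAP4 was called higher and none was called lower, while 3.45% of all genes tested were called higher. The median log2 fold change of the list was -0.085, with 4 genes above 0 and 11 below. MAP4, a microtubule-associated protein of dividing and other non-neuronal cells, went from 28.3 ± 1.10 to 37.6 ± 2.83 TPM (SD, n = 4 each). The groups did not overlap, and the log2 fold change was 0.40 (SE 0.10), with a limma adjusted p of 0.0417. Leaving out any single library lost the call, with limma adjusted p from 0.0559 without CR31B replicate 1 to 0.114 without DMSO replicate 2, as did a fit with no mean-variance trend (0.0602). MAP2, a neuronal relative of tau, was at 18.7 ± 4.68 and 26.6 ± 2.66 TPM, lower in CR31B in 4 of 4 pairs. Its log2 fold change of -0.51 did not pass (SE 0.17), with a limma adjusted p of 0.0938, though it did so with the replicate number as a block (0.0495), without CR31B replicate 1 (0.0325) and under both rescaling over protein-coding genes (0.0491) and quantile normalization (0.0370). DCX, which stabilises microtubules in migrating neurons, was at 52.1 ± 11.7 and 58.8 ± 5.18 TPM (log2 fold change -0.19, limma adjusted p of 0.487). The DCX estimate was -0.34 without CR31B replicate 1 (limma adjusted p of 0.115) and -0.12 without CR31B replicate 4.

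Of 13 tested genes for other tau kinases and for the phosphatase PP2A, 4 fell and none rose, with a median of -0.42. Over all genes tested, 4.02% were called lower. The 4 calls became 1 without DMSO replicate 4 or with no filter on low values. They became 2 without CR31B replicate 2 or 4 or DMSO replicate 1 or 2. The list was written with results of these data known, so nothing is read from the count. FYN, a tyrosine kinase that binds and phosphorylates tau, was at 7.91, 6.58, 8.60 and 6.67 TPM in CR31B and at 20.25, 19.21, 18.42 and 18.20 TPM in DMSO. The FYN groups lay far apart, and it fell by 1.25 on the log2 scale (SE 0.12), with a limma adjusted p of 0.000562. PPP2CA, a catalytic subunit of PP2A, fell from 149.8 ± 19.3 to 89.6 ± 16.4 TPM (log2 fold change -0.74 with SE 0.15, limma adjusted p of 0.0147). Its limma adjusted p was 0.0532 without DMSO replicate 4 and 0.0521 with no filter on low values.

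The remaining pair that fell was named after the values were seen. PPP2CB, the other catalytic subunit, fell from 31.2 ± 7.01 to 18.7 ± 1.66 TPM (log2 fold change -0.69, limma adjusted p of 0.0331). CDK5R1, the activator of the tau kinase CDK5, fell from 7.65 ± 0.536 to 5.22 ± 0.402 TPM (log2 fold change -0.48, limma adjusted p of 0.0333). The groups did not overlap for either gene. CDK5R1 lost its call without any single library (limma adjusted p from 0.0557 to 0.0966), and PPP2CB without any of 6 libraries, CR31B replicate 1 and DMSO replicate 3 being the exceptions (from 0.0591 to 0.0993). Of the libraries left out, DMSO replicate 4 gave the highest value for both. With no filter on low values both calls were lost too (limma adjusted p of 0.0501 for CDK5R1 and 0.111 for PPP2CB).

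**Figure D4:**
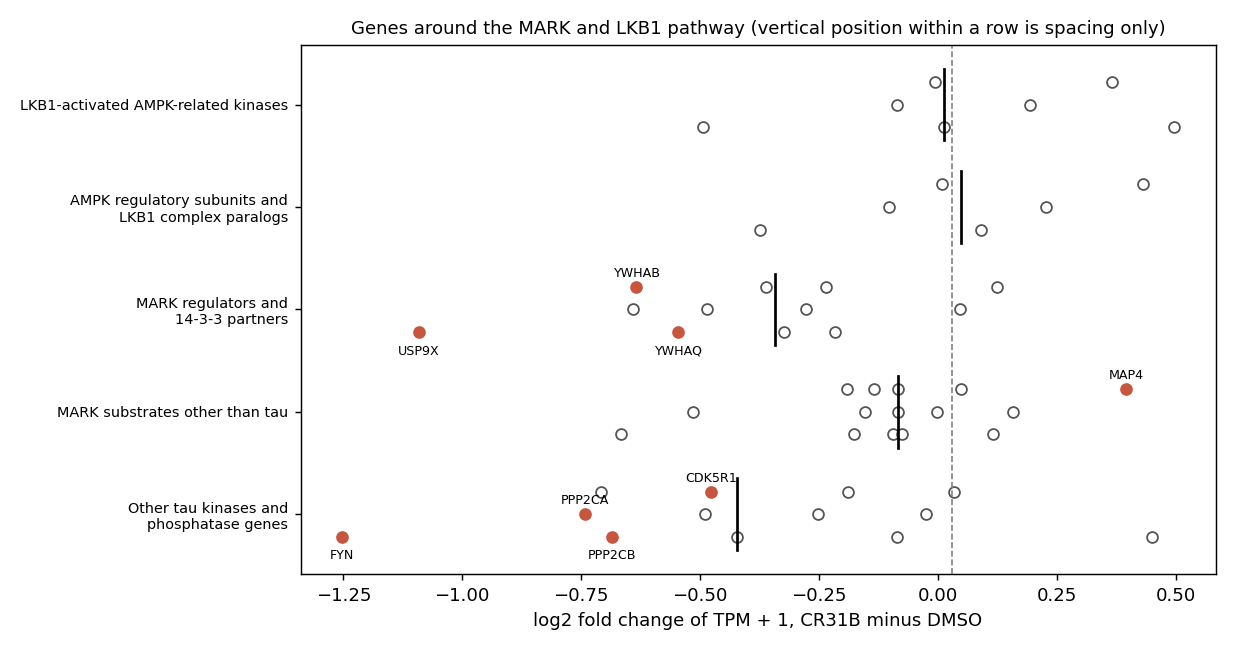
Log2 fold change (CR31B minus DMSO, log2(TPM + 1) scale) of each tested gene in the 5 pathway lists; filled and named points had a limma adjusted p under 0.05, short black lines are list medians and the dashed line is the median of all 11778 genes tested. MAP4 is the filled point above 0, and the other 7 lie below 0.

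Gene-level footprint values do not show whether a difference lies in the amount of an mRNA or in the ribosomes on each mRNA, since no RNA-seq was used here. In bulk samples, fewer cells of a type and less RNA per cell cannot be told apart. Without CR31B replicate 1, the library with the larger protein-coding share, the log2 differences were 1.93 for MARK1, -0.72 for MARK2 and -0.91 for CAB39.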

How the data were processed

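The authors deposited 1 table of TPM per gene for the 8 libraries, with versioned Ensembl identifiers. Per the submitters' processing notes, cutadapt 3.2, Bowtie2 2.3.4.1, STAR 2.7.1a, RSEM 1.2.28 and DESeq2 1.32.0 and the builds hg38 and GRCh38 were used, without stated roles; annotation and strand setting are not given in the sources used here. Columns were matched to libraries by description, and symbols were found for 60437 of 60651 identifiers.

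Values were analysed as log2(TPM + 1), which understates changes of low genes. Genes averaging 1 TPM or more over the 8 libraries were fitted with limma 3.58.1 in R 4.3.3 (lmFit, eBayes with trend), treatment as the only term, and Benjamini-Hochberg adjustment over all 11778 genes. Exact permutation tests were two-sided over 70 assignments of libraries to groups. They took no account of replicate numbers, so pairs were not kept together. On 5 simulated tables with 11778 genes, 78.8% of genes changed 2-fold and 97.0% changed 4-fold were recovered, and 4.01% of calls were false. Each table held 200 changed genes, beside 879 genes called in the data, so these rates may not carry over to the data. Changes were placed on the log2(TPM + 1) scale and only in genes above a set level, so the recovery rates do not cover the lowest genes. Noise was drawn independently for each library, so deviations shared by libraries of a replicate number were not simulated. Reads per gene were estimated from the TPM of 1 read in genes with a single transcript and from GENCODE release 29 lengths; the true depth is unknown. Per gene, the transcript was chosen by APPRIS rank, then coding length, and identifiers were matched without their version. Libraries of the same replicate number had residual correlations of 0.333, 0.324, 0.301 and 0.105 for replicates 1 to 4, each above 0.1. Pairs with different numbers ran from -0.206 to 0.134, a range that includes the value of replicate 4. The numbers were treated as pairs in an alternative fit. Other alternatives were pseudocounts of 0.1 and 5, a minimum mean of 10 TPM, no filter, 3 rescalings, a fit with no trend, and each library left out.

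The members and gene lists were chosen with earlier results of these data known. Named were the 8 members, up to 2 largest rises and falls passing the test per list, PRKAA1, PRKAA2, STRADB, CAB39L, MAP2 and DCX, and the 3 genes most correlated with MARK1. The remaining steps ran in Python 3.11.15 (SciPy 1.17.1; NumPy 2.4.6; matplotlib 3.10.9; pandas 2.3.3). Some items are not reported here.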

Additional observations from a re-analysis of the deposited data

Results flagged for a closer look

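In 2 of 44 groups of 4 libraries, 1 library lay far from the other 3, judged by how much of the whole spread of the 4 values its distance to its neighbour took up; chance gives about 1 in 20, or 2.2 such groups. MARK1 stood at 5.92 TPM in DMSO replicate 1, against 4.62 to 4.84 TPM in the other DMSO libraries; it was still far below the lowest CR31B library at 18.89 TPM. PRKAA1 stood at 27.27 TPM in DMSO replicate 2, against 20.18 to 21.35 TPM in the other DMSO libraries.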

How the results depend on the processing

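All 17 alternatives were planned. No member changed sign in any of them. The genes called over all genes, 879, became 442 with no filter on low values and 1453 with the replicate block, and ran from 405 (without DMSO replicate 4) to 785 when 1 library was left out, with 502 without DMSO replicate 1 and 515 without DMSO replicate 2 or CR31B replicate 4; the causes were not tested beyond the number of genes or samples. Called members other than MARK1, 2 in number, became 1 with no filter and 0 with a mean of at least 10 TPM, which removed MARK2, MARK3, STK11 and CAB39 from the test, and ran from 1 to 2 when 1 library was left out. For MARK2 the log2 fold change was -0.69 with no filter, where its call was lost, and ran from -0.77 to -0.58 over libraries left out. MARK1 was 1.39 with log2(TPM + 5), as a larger pseudocount shrinks differences. Over libraries left out, estimates ran from -0.95 to -0.83 for CAB39. Called pathway genes, 8 in number, became 5 with no filter and ran from 3 to 8. The replicate block changed no call of a member and, of the other named genes, added MAP2. Rescaling over protein-coding genes and quantile normalization gave 54.4% and 41.5% of calls as higher, against 46.2%; the median over all genes moved by less than 0.1. The list median of AMPK-related kinases turned to -0.030 with quantile normalization, -0.10 without DMSO replicate 2 and -0.0024 without CR31B replicate 4, and was 0.50 with a mean of at least 10 TPM. That of AMPK regulatory subunits and paralogs turned to -0.025 without CR31B replicate 1 and -0.047 with a mean of at least 10 TPM. That of the 8 members turned from -0.061 to 0.023 without CR31B replicate 2. TPM carries no depth, which limits the low genes most, STK11 and PRKAA2 among them.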
